A study of Mus musculus with 8 samples.

Results

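The miRNAs described here are mmu-miR-574-5p, mmu-miR-574-3p, mmu-miR-1187 and mmu-miR-3082-5p of the mouse, 4 of the 1881 miRNAs measured on the array and written below without the species prefix. miR-3082-5p, miR-574-5p and miR-1187 were selected on their log2 change in injured over sham kidneys, which was among the largest rises, and on their mature sequences, which consist largely of alternating U and G. miR-574-3p, the opposite arm of the miR-574 hairpin, was added for comparison. The contrast of injured against sham kidneys therefore chose the members. Their group values are given as a description, and only their array-to-array variation within each group is tested.

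The 4 IRI samples (numbered 1, 2, 3 and 18 in their titles) were kidneys after ischemia and reperfusion, taken from male C57BL/6 mice 9 weeks old whose right kidney had been removed and whose left kidney had been clamped for 25 or 45 min and collected 12 or 24 h later. Which clamping time and which collection time belongs to which sample is not given in the labels. The 4 sham samples (1, 2, 3 and 6) were kidneys of mice, also 9 weeks old, that had received a midline incision only, and so had kept both kidneys. Cy3-labelled total RNA of each sample was hybridised to a single-colour Agilent miRNA array. The labels do not say that the samples of a group came from separate animals, so a p-value measures only the spread between these samples.

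A miRNA hairpin can give a mature strand from either arm, named 5p and 3p. Each strand is thought to find its targets mainly through its seed, bases 2 to 8 from the 5′ end. Stretches of alternating U and G are also bound by RNA-binding proteins such as Celf1 and Tardbp, and simple repeats of this kind occur at many places in mammalian genomes and transcripts. On an array, a miRNA is read through short DNA probes complementary to its 3′ part, so a repetitive miRNA has a repetitive probe.

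The mature sequences are shown first because the question turns on how alike they are. They come from RefSeq (GRCm38.p6), are written 5′ to 3′, and have the seed in capitals.
miR-574-5p: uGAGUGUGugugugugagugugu
miR-1187: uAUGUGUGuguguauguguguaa
miR-3082-5p: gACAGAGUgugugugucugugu
miR-574-3p: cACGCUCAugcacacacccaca
All 4 seeds differ, and none is shared with another miRNA of the array that has a RefSeq sequence. miR-574-5p and miR-574-3p lie on the plus strand of chromosome 5, where the annotation places Fam114a1 and Tlr6. miR-1187 lies on the minus strand of chromosome 5 with no overlapping gene, and miR-3082-5p on the minus strand of chromosome 17, overlapping Jmjd8 and Stub1. The longest unbroken alternation of U and G is 13 bases in miR-574-5p, 11 in miR-1187 and 10 in miR-3082-5p, and U and G make up 91.3%, 82.6% and 77.3% of their bases.

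miR-574-3p was taken as the arm without a repeat, and its sequence goes against that label. It contains an alternating run of C and A of 7 bases, and 81.8% of its bases are A or C. Its longest alternation of U and G is 2 bases. The longest stretch shared without a mismatch is 12 bases between miR-574-5p and miR-3082-5p, 11 between miR-574-5p and miR-1187, and 10 between miR-1187 and miR-3082-5p. miR-574-3p shares at most 3 bases with any of the other members, but 7 of its bases are complementary to each of them.

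The probes carry the complement of these runs. Below they are given 5′ to 3′ as in the deposited scanner files, with the longest alternating run in capitals, because it is these letters that were hybridised.
miR-574-5p probe 1: acacactCACACACACA
miR-574-5p probe 2: acacactCACACACACAC
miR-1187 probe 1: ttacacacatACACACAC
miR-1187 probe 2: ttacacacatACACACACA
miR-3082-5p probe 1: acacagACACACACA
miR-3082-5p probe 2: acacagACACACACAC
miR-574-3p probe 1: tgtggGTGTGTG
miR-574-3p probe 4: tgtggGTGTGTGcat
The probes of miR-574-5p pair with bases 7 to 23 and 6 to 23 of their target, and those of miR-1187 with bases 6 to 23 and 5 to 23. Those of miR-3082-5p pair with bases 8 to 22 and 7 to 22. The 4 probes of miR-574-3p are 12 to 15 bases long and all hold the same run of 7 alternating T and G. The longest probe of miR-574-5p can pair without a break with 10 bases of miR-1187 and with 10 bases of miR-3082-5p. Among 1607 other array miRNAs with a RefSeq sequence, 0.187% reach that length, and the median stretch is 3 bases. The longest probe of miR-3082-5p likewise can pair with 10 bases of each of the other U and G rich members, and the longest probe of miR-1187 with 9 of each. With miR-574-3p these probes can pair over 2 to 3 bases. Whether labelled RNA of one member, or of another RNA with the repeat, bound the probes of another member was not tested.

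A single slide, read in 1 scan, carried the 8 arrays, with IRI in its row 2 and sham in its row 1, so row and group cannot be told apart. The scanner software detected 393 to 447 miRNAs on IRI arrays and 327 to 379 on sham arrays. The 5 kidney tubule marker miRNAs were all called lower in IRI (summed scaled signal 14449 to 16742 in IRI, against 19912 to 23274 in sham), calls that all ended without scaling, where their log2 changes were -0.41 to -0.12. Of the 4 red blood cell markers, 3 were tested and called higher (2948 to 4100 in IRI, against 43.0 to 904 in sham). Only 1 of them was detected on all 8 arrays. The others tested were detected throughout a single group alone, so the filter bears on that count. Of the leukocyte markers 1 of 5 was higher (764 to 1115 in IRI, against 569 to 731 in sham). Of the muscle markers, miR-1a-3p was called lower, a call that ended without scaling, and miR-133a-3p was detected nowhere (summed signal 19.9 to 27.5 in IRI, against 29.8 to 39.7 in sham). miR-122-5p, a liver marker, was detected on IRI 1 alone. The part of these cell types in the values below was not tested. In bulk tissue, fewer cells of a type and less RNA per cell cannot be told apart.

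Signals are linear intensities summed over the probes of a miRNA and scaled to a common 75th percentile per array. As a background, 12.1% of the 379 tested miRNAs were called higher in IRI by limma at an adjusted p under 0.05, and 36.7% were called lower. In counts this was 46 higher and 139 lower, against 53 and 1 without scaling and 75 and 2 when arrays were scaled to the labelling spike-ins. All IRI values lay above all sham values for 10.6% of them and below all sham values for 35.9%. The 3 members rich in U and G are among the miRNAs called higher and among those without overlap, as the way they were chosen requires, and nothing is read from that.

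miR-574-5p had a scaled signal of 739, 575.6, 514 and 679 on IRI arrays 1, 2, 3 and 18, against 210.0, 196, 289 and 291 on sham arrays 1, 2, 3 and 6. Every IRI array lay above every sham array, the lowest IRI value being 1.77 times the highest sham value. The means were 627 ± 101 in IRI and 246 ± 50.3 in sham (SD, n = 4 each), a log2 change of 1.36 (SE 0.17) or 2.56-fold.

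For miR-1187 the scaled signals were 341, 250, 212 and 262 on the IRI arrays in the same order, against 92.5, 80.7, 127 and 117 on the sham arrays. The groups again did not overlap, and the lowest IRI value was 1.67 times the highest sham value. The IRI arrays averaged 266 ± 54.1 and the sham arrays 104 ± 21.5 (SD, n = 4 each), a log2 change of 1.35 (SE 0.19) or 2.55-fold.

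miR-3082-5p had scaled signals of 432, 348, 275 and 335 on IRI arrays, against 98.7, 75.5, 139 and 115 on sham arrays. It had the widest gap of the 4 members between the groups, with the lowest IRI value at 1.98 times the highest sham value. Its means were 347 ± 64.5 in IRI and 107 ± 26.8 in sham (SD, n = 4 each), a log2 change of 1.71 (SE 0.21) or 3.28-fold.

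The values of miR-574-3p overlapped between the groups. Its scaled signals were 43.8, 66.9, 47.0 and 57.8 on IRI arrays, against 52.2, 39.3, 38.6 and 48.1 on sham arrays. IRI 1 and IRI 3 lay below the highest sham array. The means were 53.9 ± 10.5 in IRI and 44.6 ± 6.67 in sham (SD, n = 4 each), a log2 change of 0.27 (SE 0.16) or 1.20-fold. The authors' deposited table gave it a log2 change of 2.00, with sham 3, where the miRNA was not detected, at a ratio of 0.0362.

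**Figure D1:**
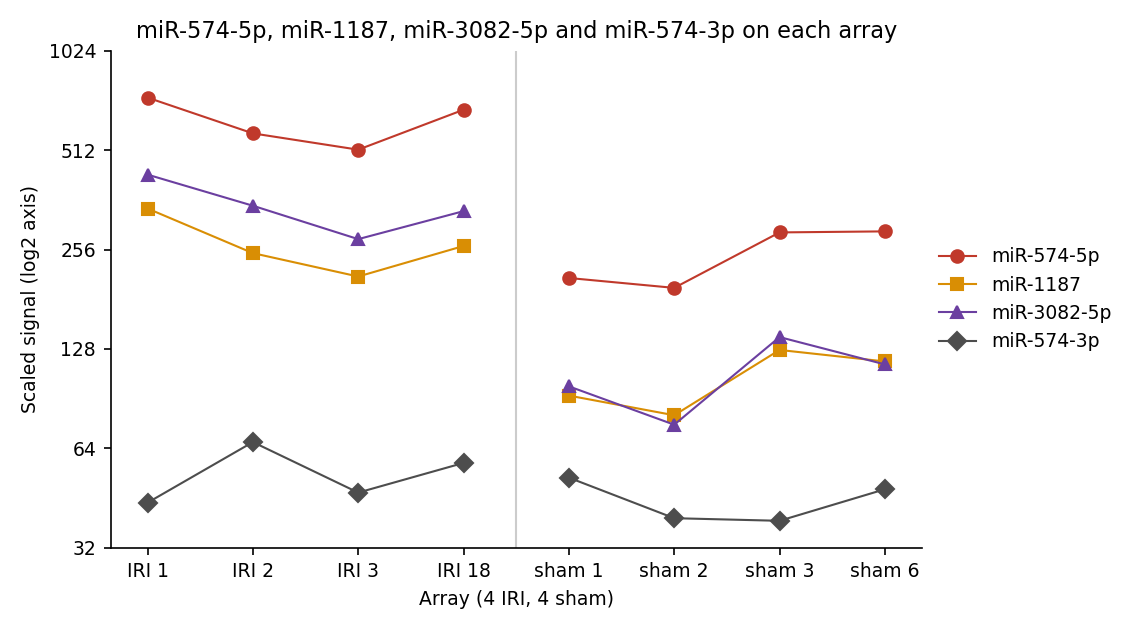
Scaled signal (log2 axis) of the 4 miRNAs on each of the 4 IRI and 4 sham arrays, 1 point per array, with lines joining the points of a miRNA within a group. The 3 miRNAs rich in U and G lie between 212 and 739 on IRI arrays and between 75.5 and 291 on sham arrays and trace similar outlines, while miR-574-3p stays between 38.6 and 66.9; heights of different miRNAs depend on their probes and cannot be compared.

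The median log2 change of all tested miRNAs was -0.11 with this scaling, 0.18 with the spike-ins and 0.17 without scaling. Relative to that median, miR-574-5p stood at 1.47, 1.49 and 1.49 in that order, miR-1187 at 1.47, 1.49 and 1.49, miR-3082-5p at 1.83, 1.85 and 1.85, and miR-574-3p at 0.38, 0.40 and 0.40 on the log2 scale. A single factor per array moves every miRNA alike, so apart from the floor these values could not differ between the scalings. Their closeness is therefore no check of the changes.

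The 2 arms of miR-574 are read from the same hairpin gene, so the log2 signal of 5p minus that of 3p was followed within each sample. It was 4.07, 3.11, 3.45 and 3.55 in IRI samples 1, 2, 3 and 18, against 2.01, 2.32, 2.90 and 2.59 in sham samples 1, 2, 3 and 6. Every IRI sample had a larger difference than every sham sample. The means were 3.55 ± 0.40 in IRI and 2.45 ± 0.38 in sham (SD, n = 4 each), so the difference was 1.09 larger in IRI, or 2.13-fold. Since the rise of miR-574-5p chose it, this carries no test. The sign of the change turned in the authors' deposited table (-0.70), and with the scanner software's own total gene signal it was 0.63. In the deposited table miR-574-3p had a ratio of 0.0362 on sham 3, where it was not detected. On the other sham arrays its ratio was 0.440 to 1.73. The part of sham 3 in the turned sign was not tested. Only the change of the arm difference is interpretable, because the probes of the arms need not give equal signal for equal RNA.

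The precision behind the arms was unequal. All 240 spots of miR-574-5p and all 237 of miR-1187 used over the 8 arrays were well above background, as were 231 of 238 spots of miR-3082-5p. For miR-574-3p it was 40 of 111 spots in IRI and 3 of 107 in sham, and the software called it detected on 4 of 4 IRI arrays and 3 of 4 sham arrays. The standard error over spots of an array was 0.013 to 0.023 on the log2 scale for miR-574-5p, 0.012 to 0.034 for miR-1187, 0.012 to 0.031 for miR-3082-5p and 0.049 to 0.107 for miR-574-3p. The within-group SD between arrays was 0.27, 0.29, 0.32 and 0.25 in the same order. In all 4 miRNAs the arrays therefore differed by more than the spot error, by the narrowest margin in miR-574-3p.

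Probes of the same miRNA repeated these values closely for the 3 members rich in U and G, and less closely for miR-574-3p. The log2 change was 1.33 and 1.37 for the 2 probes of miR-574-5p, 1.37 and 1.34 for miR-1187, and 1.82 and 1.67 for miR-3082-5p. The 4 probes of miR-574-3p had changes of 0.19, 0.13, 0.30 and 0.43. As deviations from the group means over the 8 arrays, the pair of probes correlated at r = 0.99 for miR-574-5p, 0.997 for miR-1187 and 0.94 for miR-3082-5p. The 6 pairs of miR-574-3p probes ranged between 0.05 and 0.79, with a median of 0.46. These probes share arrays and most of their sequence, so the values describe reading precision only.

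Whether the members vary together from array to array was tested on deviations from the group mean, which the choice of the members did not use. The 3 miRNAs rich in U and G did, and no pair with miR-574-3p passed the test. miR-1187 and miR-3082-5p had a within-group Pearson r of 0.97 (Spearman rho 0.95). The exact permutation p within groups over the 8 arrays was 0.00347, and 0.0156 after Benjamini-Hochberg adjustment over the 6 pairs of members. For miR-574-5p and miR-1187 r was 0.95 (rho 0.90; exact permutation p = 0.00521, adjusted p = 0.0156). For miR-574-5p and miR-3082-5p it was 0.89 (rho 0.90; exact permutation p = 0.0104, adjusted p = 0.0208). All tests were two-sided, and the smallest p the design allows is 0.00174. For rho, the exact permutation p was 0.00694, 0.0139 and 0.0174 in the same order of pairs, and 0.0347 for each after adjustment.

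Within the 4 IRI arrays alone r was 0.93 for miR-574-5p with miR-1187, 0.87 with miR-3082-5p, and 0.98 for miR-1187 with miR-3082-5p. Within the 4 sham arrays alone the same pairs had 0.98, 0.90 and 0.97. IRI 1 was the highest IRI array and IRI 3 the lowest IRI array in all 3 miRNAs. Sham 2 was the lowest sham array in all 3. Sham 3 was the highest sham array for miR-1187 and miR-3082-5p, and sham 6 for miR-574-5p.

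**Figure D2:**
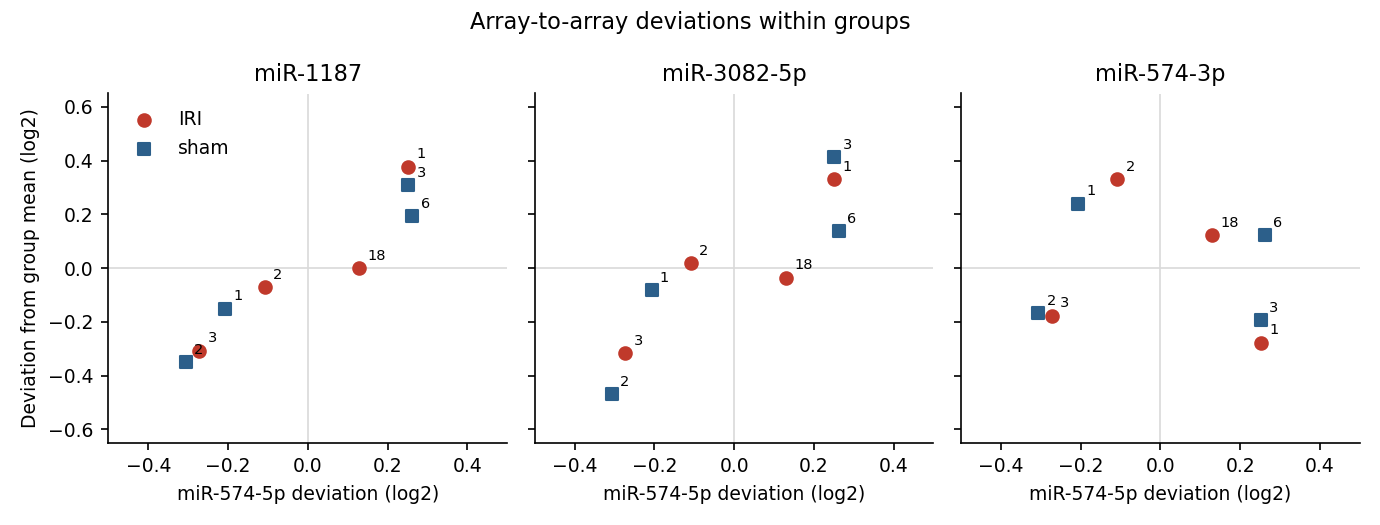
Deviation from the group mean (log2) of miR-1187, miR-3082-5p and miR-574-3p on the vertical axes against that of miR-574-5p on the horizontal axes, 1 point per array labelled with its sample number, IRI as circles and sham as squares. The points of the first 2 panels lie along a rising line (r = 0.95 and 0.89), and those of miR-574-3p do not (r = -0.14).

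miR-574-3p had r = -0.14 with its partner arm miR-574-5p, -0.20 with miR-1187 and -0.08 with miR-3082-5p. The exact permutation p was 0.712, 0.668 and 0.837, and 0.837 for each after adjustment. The rho values were -0.14, -0.38 and -0.29 (exact permutation p = 0.753, 0.385 and 0.503, and adjusted p = 0.753, 0.578 and 0.604). With 8 arrays these values do not show that the arms vary independently. The sign turned to positive for all 3 pairs without scaling, with the spike-ins and with normexp background correction, at most to 0.20.

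For the 3 pairs of members rich in U and G, r stayed between 0.75 and 0.998 across settings. The lowest values were those of miR-574-5p with miR-3082-5p, and the calls on the 3 pairs did not hold in every setting. When the 2 arrays farthest from the median of the first-named miRNA, IRI 1 and sham 2 for each of these pairs, were left out, r was 0.95 for miR-574-5p with miR-1187, 0.78 for miR-574-5p with miR-3082-5p and 0.94 for miR-1187 with miR-3082-5p (exact permutation p = 0.0556, 0.222 and 0.0556 over 6 arrays). With 6 arrays the smallest p is 0.0278, so these values say little about which arrays the calls rest on. Leaving out 1 array at a time gave r between 0.93 and 0.98, between 0.84 and 0.92, and between 0.96 and 0.98 for the same pairs. The adjusted exact permutation p of miR-574-5p with miR-1187 was above 0.05 without sham 2 (0.0833), IRI 1 (0.0625), IRI 2 (0.0556) or IRI 3 (0.104). That of miR-1187 with miR-3082-5p did so without sham 2 (0.0833), sham 3 (0.0833), IRI 1 (0.0625) or IRI 3 (0.0833). For miR-574-5p with miR-3082-5p it did so without any array but IRI 18, at 0.0556 to 0.111. With the 75th percentile taken over all miRNAs, r was 0.89, 0.75 and 0.92 for the 3 pairs in that order, and the adjusted exact permutation p was 0.219, 0.464 and 0.219.

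Array measures were set against the members in the same way. The 75th percentile used for scaling had a within-group r of -0.51 with miR-574-5p (rho -0.64; exact permutation p = 0.222 and 0.191), -0.29 with miR-1187 (rho -0.45), -0.23 with miR-3082-5p (rho -0.38) and 0.21 with miR-574-3p (rho 0.31). The r of the number of detected miRNAs and of the mean negative control signal lay between -0.08 and 0.35. Over all 16 such relations, with a labelling spike-in as the fourth measure, the adjusted exact permutation p was 0.979.

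Many miRNAs shared part of this variation. Over the 376 other tested miRNAs whose values varied, the median within-group r with miR-574-5p was 0.44, with miR-1187 0.47, with miR-3082-5p 0.44, and with miR-574-3p -0.06. Among these, miR-1187 ranked 3 and miR-3082-5p ranked 6 by likeness to miR-574-5p, and miR-574-3p ranked 340. For miR-1187, miR-3082-5p ranked 2 and miR-574-5p ranked 4. For miR-3082-5p, miR-1187 ranked 2 and miR-574-5p ranked 13. The general level depended on the scaling: the median r with miR-574-5p was 0.08 with the percentile over all miRNAs and -0.18 with quantile normalization, while the pairs among the 3 members rich in U and G stayed between 0.75 and 0.998 in all 19 other settings. These correlations over 8 arrays share RNA, slide and scaling and are given without a p.

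**Figure D3:**
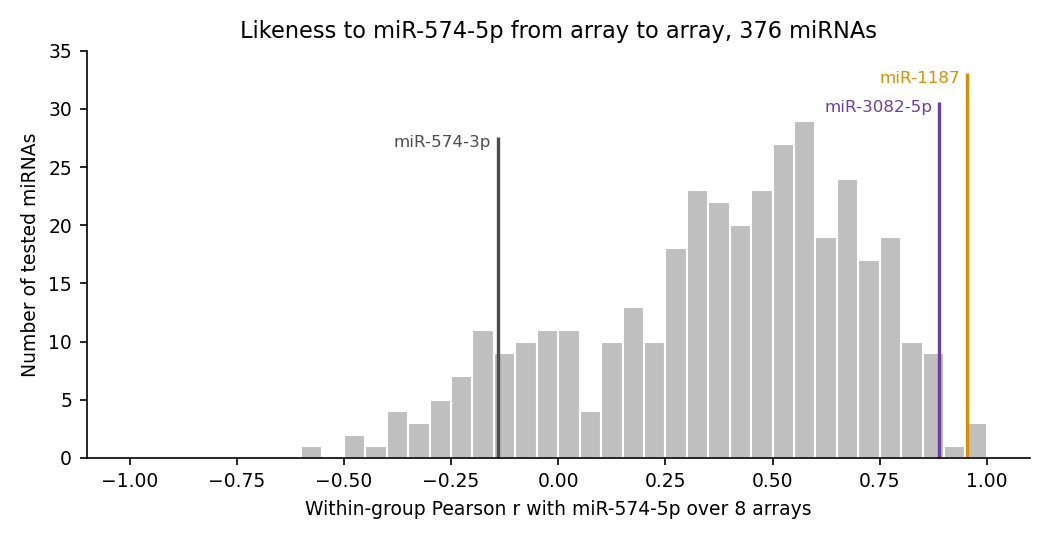
Histogram of the within-group Pearson r with miR-574-5p over 8 arrays for 376 tested miRNAs, with the values of 3 members drawn as vertical lines. Most miRNAs lie above 0 (median 0.44), miR-3082-5p (0.89) and miR-1187 (0.95) lie at the right edge, and miR-574-3p (-0.14) lies left of the bulk.

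The most alike non-members were then taken from the 314 miRNAs detected on all 8 arrays, a narrower set than the tested miRNAs ranked above. The one most like miR-574-5p was miR-466i-5p, with r = 0.99. It was also the one most like miR-1187, with r = 0.97. Its probes hold the longest alternating run of A and C of any tested miRNA, 16 bases, and it was higher in IRI by a log2 change of 1.27 (SE 0.17, limma adjusted p = 0.00104). Its scaled signal averaged 1641 ± 262 in IRI and 682 ± 129 in sham (SD, n = 4 each), and the call held in all 22 other settings. Next for miR-574-5p came miR-8095 (r = 0.97) and miR-1904 (r = 0.92), whose probes hold runs of 3 and 2 bases and which were not called (log2 change 0.24 and 0.04, limma adjusted p = 0.126 and 0.789). Next for miR-1187 came let-7b-5p (r = 0.96) and miR-8095 (r = 0.93).

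For miR-3082-5p the most alike were miR-669n (r = 0.97), miR-3069-3p (r = 0.96) and miR-345-5p (r = 0.94). miR-669n was higher in IRI, while miR-3069-3p and miR-345-5p had negative changes (log2 change -0.57 and -0.40, limma adjusted p = 0.00143 and 0.00193), calls that ended without scaling (adjusted p = 0.190 and 0.621, limma) and with the spike-ins (adjusted p = 0.198 and 0.680, limma). For miR-574-3p the most alike were miR-6481 (r = 0.94), miR-466f-3p (r = 0.90) and miR-466i-3p (r = 0.81), none of them called. miR-669f-3p, tested but detected on 1 of 4 sham arrays and so outside that set, had r = 0.90. The probes of miR-466f-3p and miR-466i-3p each hold a run of 10 alternating T and G, the same kind of run as the probes of miR-574-3p. Those of miR-6481, the most alike, hold a T and G run of only 3 bases. The longest A and C runs in the probes of miR-669n, miR-3069-3p and miR-345-5p were 8, 2 and 3 bases.

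Other miRNAs with a run of U and G were then described as a list, those with an alternating run of at least 6 bases in the RefSeq mature sequence. The array holds 29 of them, of which 9 passed the filter on dim miRNAs. The non-members among the tested ones are shown with the run in capitals.
miR-32-3p: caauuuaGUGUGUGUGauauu
miR-669n: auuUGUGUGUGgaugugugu
miR-672-5p: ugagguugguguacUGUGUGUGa
let-7b-5p: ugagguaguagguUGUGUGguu
let-7k: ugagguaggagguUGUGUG
miR-7226-5p: gccagggaaguugauUGUGUGaaggg
They lie on chromosomes 4, 3, X, 15, 5 and 4 in that order. Of these 6 non-members, 2 were called higher and 1 lower, against 12.1% and 36.7% of all tested miRNAs, and their median log2 change was 0.25 against -0.11 for all tested miRNAs. However, miR-32-3p, miR-672-5p and let-7k passed the filter through the IRI arrays alone. Of the 3 detected on all 8 arrays, 1 was called higher and 1 lower, with a median of -0.10. With the 3 members in the list it was 5 higher and 1 lower of 9, with a median of 0.93, but 3 of the 5 had been chosen for their rise.

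miR-669n had a scaled signal of 82.5 to 131 in IRI, against 28.4 to 62.6 in sham. It was higher by a log2 change of 1.17 (SE 0.25, limma adjusted p = 0.00670), with no overlap between the groups. The call held in 20 of 22 other settings, and the limma adjusted p reached 0.0800. miR-32-3p, the passenger arm of miR-32, had 28.9 to 55.9 in IRI, against 9.78 to 26.0 in sham, where it was detected on 2 of 4 arrays. Its log2 change of 0.93 (SE 0.23, limma adjusted p = 0.0117) therefore rests partly on values at the floor and is no measured size, and with normexp background correction its adjusted p was 0.0503 (limma). miR-672-5p, detected on 1 sham array, was not called (log2 change 0.51, limma adjusted p = 0.0667).

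The miRNAs of this list with runs of 6 bases were not called higher, and neither was miR-672-5p with a run of 8. let-7b-5p, a member of the let-7 family linked to differentiation, was the one lower miRNA of the list, with 5375 ± 243 in IRI and 7146 ± 286 in sham (SD, n = 4 each, log2 change -0.41, limma adjusted p = 0.00122). That call ended without scaling (-0.11, adjusted p = 0.561, limma), with quantile normalization (-0.06, adjusted p = 0.469, limma) and with the spike-ins (-0.09, adjusted p = 0.620, limma). miR-7226-5p had a log2 change of -0.10 (limma adjusted p = 0.637), which turned to 0.20 without scaling. let-7k was detected on 4 IRI arrays and 0 sham arrays but lay below the floor on all of them, so it had no measured change.

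Because the members are read through their probes, the runs were also counted there, a choice made after values were seen. Alternating runs of A and C of at least 6 bases occur in the probes of 45 array miRNAs, 14 of them tested, and runs of T and G in the probes of 40, 10 of them tested. No miRNA has both. Over all tested miRNAs, 12.1% were called higher and 36.7% lower, with a median log2 change of -0.11. Without the members, 6 of 11 tested miRNAs with the A and C run were called higher and 1 lower, with a median log2 change of 0.54. Of these 11, 7 passed the filter through the IRI arrays alone, and the 4 detected on all 8 arrays held 2 higher and 1 lower, with a median of 0.53. Without miR-574-3p, 0 of 9 with the T and G run were called either way by limma, 0 of 9 had an unadjusted p under 0.05, and their median was 0.19. The first list adds miR-466i-5p and miR-468-3p, which was higher by a log2 change of 1.29 (limma adjusted p = 0.0170) with detection on 2 of 4 sham arrays. With normexp its change was 0.48 and the call was lost (limma adjusted p = 0.0572), and its adjusted p reached 0.180 over 21 other settings. The list also adds miR-466h-5p, miR-466m-5p and miR-669l-5p, detected on 0 sham arrays, so that their sizes were not measured. Set by run length, the 7 tested miRNAs with 8 to 16 alternating A and C had a median log2 change of 1.27, the 7 with 6 to 7 had 0.02, the 5 with 5 had -0.23, the 150 with 3 to 4 had -0.22 and the 210 with 0 to 2 had -0.07. The first of these bins holds the 3 members chosen for their rise, and miR-32-3p and miR-672-5p, which passed the filter through the IRI arrays alone. Without all of these it holds 2 miRNAs, miR-669n and miR-466i-5p, with a median of 1.22, so no trend with run length is read from the bins.

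**Figure D4:**
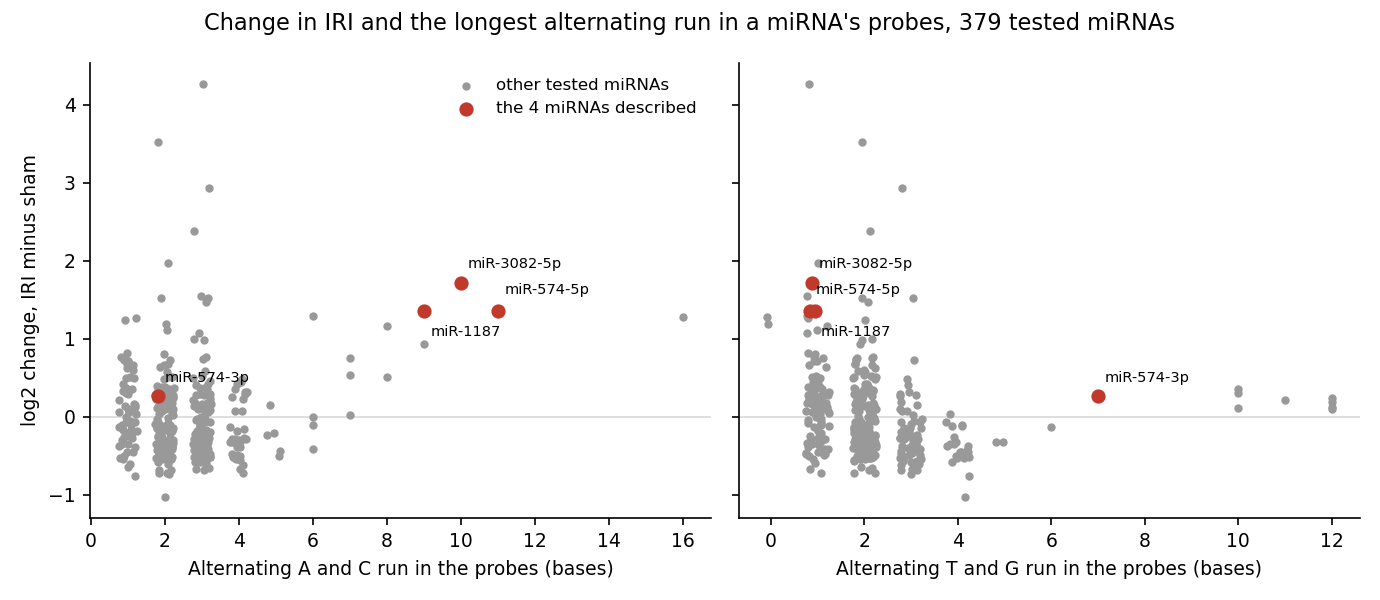
log2 change of IRI over sham for 379 tested miRNAs against the longest alternating run of A and C (left) or of T and G (right) in any probe of the miRNA, with points of runs under 6 bases spread sideways to be seen, and the 4 members in red. Changes at A and C runs of 8 bases or more lie between 0.51 and 1.71, and those at T and G runs of 6 bases or more lie between -0.13 and 0.36.

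Array-to-array variation was described over the same lists. Among miRNAs detected on all 8 arrays, the median pairwise within-group r was 0.89 over 21 pairs with the A and C run, members included, 0.94 over 28 pairs with the T and G run, and 0.25 over 50086 pairs of all 317 such miRNAs. Without the members, whose likeness was the tested result, it was 0.80 over 6 pairs with the A and C run, the lowest pair being 0.40. miR-574-3p had a median r of 0.64 with the 8 other miRNAs of the T and G list and -0.21 with the 4 non-members of the A and C list. miR-574-5p had 0.16 and 0.86 with the same lists, miR-1187 had -0.09 and 0.94, and miR-3082-5p had -0.05 and 0.92. In the T and G list miR-6378 went the other way, with r = 0.72 with miR-574-5p and -0.03 with miR-574-3p. Members of either list share stretches of probe sequence and the same arrays, so these values are descriptions of likeness in signal.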

How the data were processed

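Per the labels' protocols, 30 mg of kidney gave total RNA, of which 100 ng was labelled. Spot intensity in the deposited scanner files is linear, background-subtracted by Agilent Feature Extraction 12.0.3.1 and not normalized between arrays, per the file headers. A deposited table of values gives each miRNA as a linear ratio. Its differences between arrays had r = 1.00 with total gene signal over 317 miRNAs on every array, so more signal gives a higher ratio, while its array factors and its centre per miRNA are unknown. The medians of its columns were 0.658, 0.646, 1.16 and 0.749 for IRI 1, 2, 3 and 18, and 0.859, 1.23, 1.29 and 1.30 for sham 1, 2, 3 and 6. It was used as an alternative.

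Control spots were dropped, as were 1422 to 1560 outliers among the 56430 other spots of an array, and 0 were saturated. The mean over spots was taken for each of 4415 probes and summed per miRNA. Arrays were scaled to the same 75th percentile of the 317 miRNAs that all 8 arrays detected. A floor of 17.3, the 5th percentile of detected signals, preceded log2. A miRNA was tested if every array of a group detected it, which left 379 for limma 3.58.1 (R 4.3.3, two-sided, Benjamini-Hochberg, threshold 0.05), tested first on simulated data. The number of arrays limits the precision. Within-group correlations used deviations from group means and all pairings of arrays within groups. Mature sequences came from RefSeq GRCm38.p6, where 1608 array miRNAs and 317 of the 379 tested matched by name. Named miRNAs were the members, the tested miRNAs with a U and G run, the 3 non-members most like each member, and marker miRNAs. Those added from the probe lists were chosen after their values were seen. Members and lists were chosen with earlier results of these data known. Alternatives covered scaling, background correction, summary, floor, filter, blocks, list definition and leaving out each array.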

Additional observations from a re-analysis of the deposited data

Results flagged for a closer look

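Of 48 groups of 4 arrays examined for the 24 tested miRNAs of the lists, 3 held a value far from the other arrays, and chance flags about 1 in 20 groups. None belonged to a member. The highest sham value of miR-672-5p was sham 3 at a scaled signal of 22.5, with the others at 17.3 to 17.9 and a gap of 0.855 of the group's range. Here too 17.3 is the floor. Before the floor the lowest sham value was 7.12, so this gap depends on the floor and is no measured outlier. For miR-466h-5p, sham 3 stood at 28.1 and for miR-669l-5p, IRI 1 stood at 18.4. The other 3 arrays of those groups lay at the floor of 17.3, so each gap was 1 times the range and its size was not measured.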

How the results depend on the processing

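miR-3082-5p had log2 changes of 1.50 to 2.04 in the 20 other settings, each within its between-array SD of 0.32 of the main value. Without scaling it was 2.02 and with the spike-ins 2.04. The other members shifted alike there but have smaller SDs, so this is no sign of greater stability. The log2 changes of miR-574-5p, miR-1187 and miR-574-3p were 1.66, 1.66 and 0.57 without scaling. Scaled to the spike-ins they were 1.68, 1.67 and 0.59. miR-574-3p had 0.76 with the software's total gene signal and 2.00 in the authors' deposited table. The change of the miR-574 arm difference was 0.63 with the total gene signal and -0.70 in the authors' deposited table. The latter includes the ratio of 0.0362 for miR-574-3p on sham 3, where it was not detected. With normexp background correction miR-574-3p had 0.05. No setting turned the change of any member.

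For the pairs of miR-574-3p with miR-574-5p, miR-1187 and miR-3082-5p, r turned to 0.064, 0.089 and 0.17 without scaling. Scaled to the spike-ins it was 0.049, 0.072 and 0.15, and under normexp 0.20, 0.0072 and 0.050. Leaving out 1 array gave -0.65 to 0.12, -0.65 to 0.17 and -0.48 to 0.23. None of these passed the test. For miR-574-5p with miR-1187, miR-574-5p with miR-3082-5p and miR-1187 with miR-3082-5p, r fell short of the threshold with the percentile over all miRNAs (0.89, 0.75 and 0.92). The second pair also fell short with quantile normalization (0.76, adjusted exact permutation p = 0.0556) and in the authors' deposited table (0.79, adjusted exact permutation p = 0.0729). Leaving out 1 array gave 0.93 to 0.98, 0.84 to 0.92 and 0.96 to 0.98. As deviations from group and slide column means the 3 pairs had 0.998, 0.95 and 0.97 and miR-574-3p with miR-3082-5p had 0.023. That test has 4 columns and a smallest p of 0.0417, so a pair could pass after adjustment only if all 6 pairs reached it.

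The U and G list had 5 higher and 1 lower. It had 0 lower with runs of at least 8 bases, with quantile normalization, without scaling and when scaled to the spike-ins. Without the members it had 2 higher and a median of 0.25. By probe sequence, a choice made after seeing the data, it had 9 higher. With no filter it had 3 higher and a median of 0. Its median was 0.42 with normexp and 1.30 in the authors' deposited table. Leaving out 1 array gave 5 to 6 higher and a median of 0.74 to 1.05. Of all tested miRNAs 46 were higher and 139 lower, against 53 and 1 without scaling and 75 and 2 when scaled to the spike-ins. Under normexp 29 were higher, and with no filter 21 were higher and 90 lower. Leaving out 1 array gave 36 to 64 higher and 114 to 144 lower.

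Samples of equal number (1, 2 and 3) did not deviate together over the 379 miRNAs (r = -0.16, -0.20 and 0.24). Whether they share more than a number cannot be told from these values. With the replicate block over those 6 arrays the U and G list had 3 higher, and miR-574-5p, miR-574-3p, miR-1187 and miR-3082-5p had log2 changes of 1.40, 0.26, 1.41 and 1.77. The causes of these shifts were not tested. Spots near background limit miR-574-3p, and 4 arrays a group limit every comparison.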
